A study of Mus musculus with 12 samples.

Results

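The colon of mice lacking both interleukin-10 and STING was compared with the colon of wild-type mice. The comparison rests on 6 of 12 Affymetrix whole-transcript arrays, 3 labelled IL10-/- STING-/- (double knockout, DKO) and 3 labelled IL10+/+ STING+/+ (wild type, WT), chosen by the genotype in the labels. The other 6 arrays, 3 of IL10-/- STING+/+ (IL10KO) and 3 of IL10+/+ STING-/- (SKO), entered the same statistical fit and are used to show where a gene stood when only 1 of the genes was lost. All 12 were total RNA of colon, and the labels give no strain, age, sex, housing, colon segment, treatment or statement that each array was a separate animal, so a p-value here covers no more than the spread between these arrays, which may be technical. Differences of line, litter or cage between the groups cannot be told apart from genotype. Signals are on the log2 scale, on which a difference of 1 is a 2-fold change. The test was limma's moderated test with Benjamini-Hochberg adjustment over 22180 genes; genes with an adjusted p under 0.05 are said to be called, and every adjusted p below is limma's.

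Interleukin-10 is a cytokine made by T cells, macrophages and other cells of the gut wall, where it holds back the response of macrophages and T cells to gut bacteria, and mice without it are known for spontaneous colitis. STING, encoded by Sting1, sits in the endoplasmic reticulum and binds cyclic dinucleotides that the sensor cGAS makes on DNA in the cytosol or that bacteria release. It then switches on type I interferon and NF-kappaB target genes. The study set out to compare colon expression in mice lacking interleukin-10 alone or together with STING. The contrast with wild type shows which levels were away from wild type when both genes were lost.

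The targeted genes and the origin of the tissue were examined before other genes. Sting1 (probe set 17353663) read 4.23, 4.13 and 4.34 in DKO and 7.51, 6.40 and 4.56 in WT. The last of these, in the library labelled WT replicate 3, lay near the SKO range of 4.28 to 4.40, while WT replicates 1 and 2 lay within and just below the IL10KO range of 6.87 to 8.09. Sting1 was thus lower in DKO than WT by -1.92 ± 0.52 (standard error, SE), which did not pass (adjusted p = 0.679), and by -2.72 ± 0.33 without that library (adjusted p = 0.00157). That library also resembled SKO replicate 1 more than any other array did another, with r = 0.9967 across genes (66 pairs), and no pair of arrays held identical values. The main results are therefore given with and without this library. Il10 (probe set 17216990) was dim, at 3.65, 3.59 and 3.80 in WT and 4.60, 4.49 and 4.33 in DKO, a difference of 0.79 ± 0.19 (adjusted p = 0.467). The labels do not say whether that probe set lies in the deleted part, and it therefore checks nothing.

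The arrays read as colon. Muc2, the main mucin of goblet cells, read between 12.39 and 12.95 in all 12 arrays, and 16 genes that mark position along the colon (Hox genes among them) had a mean signal between 6.39 and 6.55 in DKO and between 6.34 and 6.46 in WT. Pancreatic acinar genes (22 measured) had a mean signal of 7.80 in WT replicate 1 and 10.51 in WT replicate 2 against 5.17 in WT replicate 3 and 4.73 to 4.94 in DKO. Stratified squamous and sebaceous genes (21 measured) had a mean of 5.05 in DKO replicate 3, against 4.20 and 4.27 in the other DKO arrays and 4.22 to 4.29 in WT. Array medians over all genes lay between 5.47 and 5.57.

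**Figure D1:**
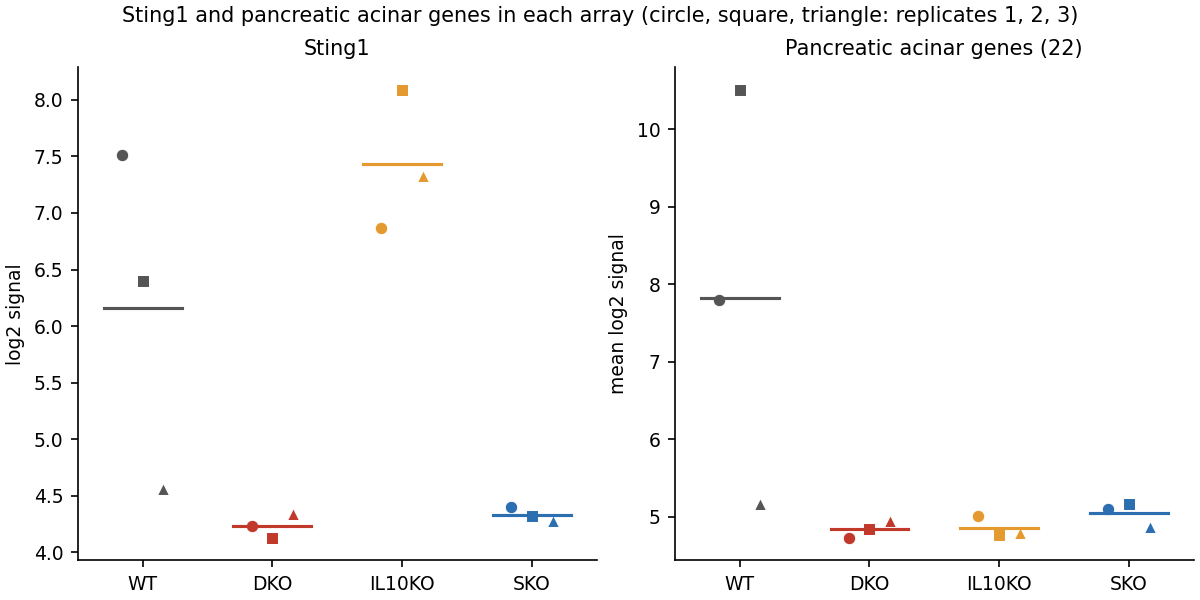
Left, the log2 signal of Sting1 in each array; right, the mean log2 signal of 22 pancreatic acinar genes in each array, with arrays grouped by genotype along the x axis, a marker shape per replicate and a line at each group's mean. Sting1 in the library labelled WT replicate 3 (4.56) sits beside the knockouts, and the acinar genes stand high in WT replicates 1 and 2 (7.80 and 10.51) alone.

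Few genes separated DKO from WT. Of 22180 genes, 10 passed the test (0.0451%), 9 higher in DKO (0.0406%) and 1 lower (0.00451%), and each of the 10 differed by at least 2-fold. At an unadjusted p under 0.05 there were 648 genes (2.92%). The same arrays gave 1805 genes (8.14%) for IL10KO against WT and 1284 (5.79%) for DKO against IL10KO, while DKO against SKO gave 10 (0.0451%) and SKO against WT gave 0, with 454 (2.05%) at an unadjusted p under 0.05. Without the library labelled WT replicate 3, IL10KO against WT gave 888 genes (4%) and SKO against WT gave 55 (0.248%). That fit also holds fewer WT arrays, and the part of this library itself in these counts was not tested. These comparisons share arrays with DKO against WT and are set side by side only for their size. The genes that passed were St3gal4, Nxpe4, Gm609, Casp4, Gm17783, Ceacam10, Cd177, 4930581F22Rik and Dubr, all higher, and Gdpd3, lower. Gm609, Gm17783 and 4930581F22Rik fall outside the naming rule, which leaves out predicted genes, and are named after their values were seen.

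Of the called genes, all but Gm609 had an annotated window, and the sequences just before the start of 5 of them are shown. They are the 250 bases before the annotated start, from RefSeq (GRCm38.p6, which need not be the array's build), read 5' to 3' on the gene's own strand, at chr9:35116865-35117114 (- strand) for St3gal4, chr9:48361791-48362040 (+ strand) for Nxpe4, chr9:5308599-5308848 (+ strand) for Casp4, chr7:24760312-24760561 (- strand) for Cd177 and chr7:126766164-126766413 (+ strand) for Gdpd3. Capitals mark matches, on either strand, to the NF-kappaB consensus, to TTCNNNGAA (a STAT element), to GAAA repeated after a gap of 2 bases (an interferon response element) or to TATAAA.
St3gal4: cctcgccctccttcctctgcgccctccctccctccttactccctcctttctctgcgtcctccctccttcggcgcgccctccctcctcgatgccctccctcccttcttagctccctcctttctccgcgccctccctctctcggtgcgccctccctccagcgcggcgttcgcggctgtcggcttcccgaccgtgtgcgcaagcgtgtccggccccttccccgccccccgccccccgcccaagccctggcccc
Nxpe4: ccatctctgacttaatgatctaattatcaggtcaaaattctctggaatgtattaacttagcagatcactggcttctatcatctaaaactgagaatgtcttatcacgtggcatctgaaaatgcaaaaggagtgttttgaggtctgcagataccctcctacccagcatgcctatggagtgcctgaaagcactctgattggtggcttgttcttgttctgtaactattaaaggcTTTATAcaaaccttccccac
Casp4: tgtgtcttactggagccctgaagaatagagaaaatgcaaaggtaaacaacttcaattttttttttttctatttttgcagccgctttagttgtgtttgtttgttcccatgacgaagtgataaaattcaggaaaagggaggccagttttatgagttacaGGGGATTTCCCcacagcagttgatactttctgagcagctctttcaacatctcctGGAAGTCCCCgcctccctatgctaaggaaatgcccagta
Cd177: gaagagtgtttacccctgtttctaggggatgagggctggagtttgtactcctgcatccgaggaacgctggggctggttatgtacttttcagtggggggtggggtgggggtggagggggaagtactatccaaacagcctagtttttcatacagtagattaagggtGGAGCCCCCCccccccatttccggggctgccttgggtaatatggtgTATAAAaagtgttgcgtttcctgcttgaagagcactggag
Gdpd3: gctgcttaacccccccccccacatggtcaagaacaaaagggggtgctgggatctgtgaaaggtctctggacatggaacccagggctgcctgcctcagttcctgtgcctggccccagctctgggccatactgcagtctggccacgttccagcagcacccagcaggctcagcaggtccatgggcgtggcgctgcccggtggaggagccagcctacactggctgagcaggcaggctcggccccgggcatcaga
Casp4 held 3 matches to the NF-kappaB consensus, beginning at -93, -92 and -39 from the start, the first pair overlapping. Cd177 held 1 such match at -86 and TATAAA at -40, and Nxpe4 held TATAAA on the opposite strand, at -20. The windows of St3gal4 and Gdpd3 held none of the 4 motifs. Of all 32851 windows of that length in the table, 7.25% held the NF-kappaB consensus, 7.02% TTCNNNGAA, 2.98% the GAAA repeat and 12.4% TATAAA. Among the other called genes, 4930581F22Rik held an NF-kappaB match at -140, Dubr held TTCNNNGAA at -231, Gm17783 held TATAAA at -193 and Ceacam10 held none, and 9 of the 10 genes had an entry. A match is a run of letters, and the data do not show that any factor bound there.

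St3gal4 and Nxpe4 rose the most. St3gal4, a Golgi enzyme that adds sialic acid to the terminal galactose of glycans, read 9.92, 9.81 and 9.91 in DKO and 5.51, 6.18 and 6.85 in WT. The DKO arrays lay close together and far above every WT array, among which the library labelled WT replicate 3 was the highest. The difference was 3.70 ± 0.29, a 13-fold rise (adjusted p = 3.42e-05), and 4.04 ± 0.26 without that library (adjusted p = 4.88e-06). St3gal4 was also at 9.41 ± 0.16 (SD, n = 3) in IL10KO and at 6.38 ± 0.51 in SKO. DKO and IL10KO differed by 0.46, which did not pass (adjusted p = 0.336). Nxpe4, a neurexophilin and PC-esterase domain protein, read 9.05, 8.70 and 8.49 in DKO and 5.16, 5.07 and 5.25 in WT. No other called gene had WT arrays so close to each other, within 0.09 (SD, n = 3), apart from the dimmer 4930581F22Rik at 0.08. Nxpe4 rose by 3.59 ± 0.27, 12-fold (adjusted p = 3.42e-05), and by 3.63 ± 0.32 without WT replicate 3 (adjusted p = 5.42e-05). In IL10KO it read 6.90, 8.31 and 7.33, above WT by 2.35 (adjusted p = 0.000305) and below DKO, and DKO exceeded IL10KO by 1.23 (adjusted p = 0.0194). In SKO it stayed at 5.32 ± 0.19 (SD, n = 3).

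Casp4, the mouse caspase that senses bacterial lipopolysaccharide in the cytosol and cleaves gasdermin D, read 8.34, 8.48 and 8.30 in DKO and 6.69, 6.21 and 6.80 in WT. All DKO arrays lay above all WT arrays. The rise was 1.81 ± 0.21, 3.49-fold (adjusted p = 0.00394), and 1.92 ± 0.24 without WT replicate 3 (adjusted p = 0.00181). IL10KO stood at 7.91 ± 0.41 (SD, n = 3) and SKO at 6.37 ± 0.27, and DKO, at 8.37 ± 0.09, exceeded SKO (adjusted p = 0.00116). DKO minus IL10KO was 0.46 (adjusted p = 0.2). Casp1 and Casp12, its neighbours on chromosome 9 and also inflammatory caspases, were not called, with differences of 0.15 and 0.08 (both adjusted p = 1).

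Gdpd3, an enzyme of the glycerophosphodiester phosphodiesterase family that acts on lysophospholipids, was the only gene called lower. It read 5.28, 5.39 and 5.56 in DKO and 8.11, 7.82 and 7.64 in WT, with a wide gap between the groups. The fall was -2.45 ± 0.18, 5.45-fold (adjusted p = 3.42e-05), and -2.55 ± 0.20 without WT replicate 3 (adjusted p = 2.64e-05). IL10KO read 5.23, 5.57 and 5.84, which overlaps the DKO arrays, and DKO minus IL10KO was -0.13 with a 95% interval from -0.53 to 0.26. SKO stood at 7.36 ± 0.24 (SD, n = 3), and DKO lay below it by -1.95 (adjusted p = 0.000326).

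Cd177 and Ceacam10 are adjacent in the order of tested genes on chromosome 7, and rose by similar amounts. Cd177, a surface glycoprotein best known from neutrophils, read 10.74, 10.51 and 10.15 in DKO and 8.77, 8.55 and 9.51 in WT, a rise of 1.52 ± 0.24 (adjusted p = 0.0405). Ceacam10, a secreted member of the carcinoembryonic antigen family, read 10.34, 10.26 and 9.81 in DKO and 8.47, 8.35 and 8.96 in WT, a rise of 1.54 ± 0.21 (adjusted p = 0.0163). In both genes the library labelled WT replicate 3 was the WT array nearest to DKO, and without it the rises were 1.81 ± 0.21 (adjusted p = 0.00114) and 1.73 ± 0.22 (adjusted p = 0.00237). The 19 neutrophil markers measured had a mean signal of 4.39, 4.39 and 4.49 in DKO and 4.39, 4.33 and 4.39 in WT, so the signal of these markers as a list did not move with Cd177. Cd177 stood at 10.43 ± 0.22 (SD, n = 3) in IL10KO, where the same markers had means of 5.65, 6.72 and 6.06. The call of Cd177 was lost on leaving out any other single array than WT replicate 3, with adjusted p between 0.0502 (without SKO replicate 1) and 0.315 (without DKO replicate 1). That of Ceacam10 was lost without DKO replicate 1 (0.13) or 2 (0.126) and without WT replicate 1 (0.0597) or 2 (0.133).

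Gm609 and Gm17783, 2 predicted genes side by side on chromosome 16, both rose. Gm609 read 6.32, 6.61 and 6.27 in DKO and 4.42, 4.40 and 4.69 in WT, up by 1.90 ± 0.15 (adjusted p = 3.42e-05) and by 1.99 ± 0.16 without WT replicate 3 (adjusted p = 3.22e-05). It was near WT in SKO (4.39 ± 0.09, SD, n = 3) and in IL10KO (4.97 ± 0.20), where the difference of 0.47 from WT did not pass (adjusted p = 0.0666), and DKO exceeded IL10KO by 1.43 (adjusted p = 0.000185). Of the 10 genes it was thus 1 of 3, with Nxpe4 and 4930581F22Rik, that also passed between DKO and IL10KO. Gm17783 read 5.07, 5.10 and 4.41 in DKO and 3.13, 3.15 and 3.59 in WT, up by 1.57 ± 0.22 (adjusted p = 0.0185; 1.72 ± 0.24 and adjusted p = 0.0054 without WT replicate 3). Its call was lost without DKO replicate 1 (adjusted p = 0.149) or 2 (0.15) and without WT replicate 1 (0.0715) or 2 (0.144). Slc9c1, the next gene on the other side of Gm17783, differed by -0.05.

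4930581F22Rik and St3gal4 are adjacent on chromosome 9 on opposite strands, and by their annotated starts the transcripts run through each other, so whether the probes of either read the other was not tested. 4930581F22Rik read 5.45, 5.06 and 5.16 in DKO and 3.93, 3.98 and 4.09 in WT, up by 1.22 ± 0.18 (adjusted p = 0.0313; 1.27 ± 0.21 and adjusted p = 0.0219 without WT replicate 3). In IL10KO, where St3gal4 was almost as high as in DKO, it read 3.94, 4.52 and 4.67, and DKO minus IL10KO was 0.85 (adjusted p = 0.0176). Its call was lost without any single DKO array, without WT replicate 1 or 2 and without SKO replicate 1 or 2, with adjusted p from 0.0538 (without SKO replicate 1) to 0.235 (without DKO replicate 1). Dubr, a long noncoding RNA on chromosome 16, read 6.06, 5.88 and 5.82 in DKO and 4.96, 4.43 and 4.91 in WT, up by 1.15 ± 0.15 (adjusted p = 0.0109; 1.22 ± 0.17 and adjusted p = 0.00591 without WT replicate 3). Its call was lost without DKO replicate 1 (adjusted p = 0.105) or 2 (0.0665) or without WT replicate 2 (0.051). Dubr lay between the groups in IL10KO, at 5.40 ± 0.05 (SD, n = 3).

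**Figure D2:**
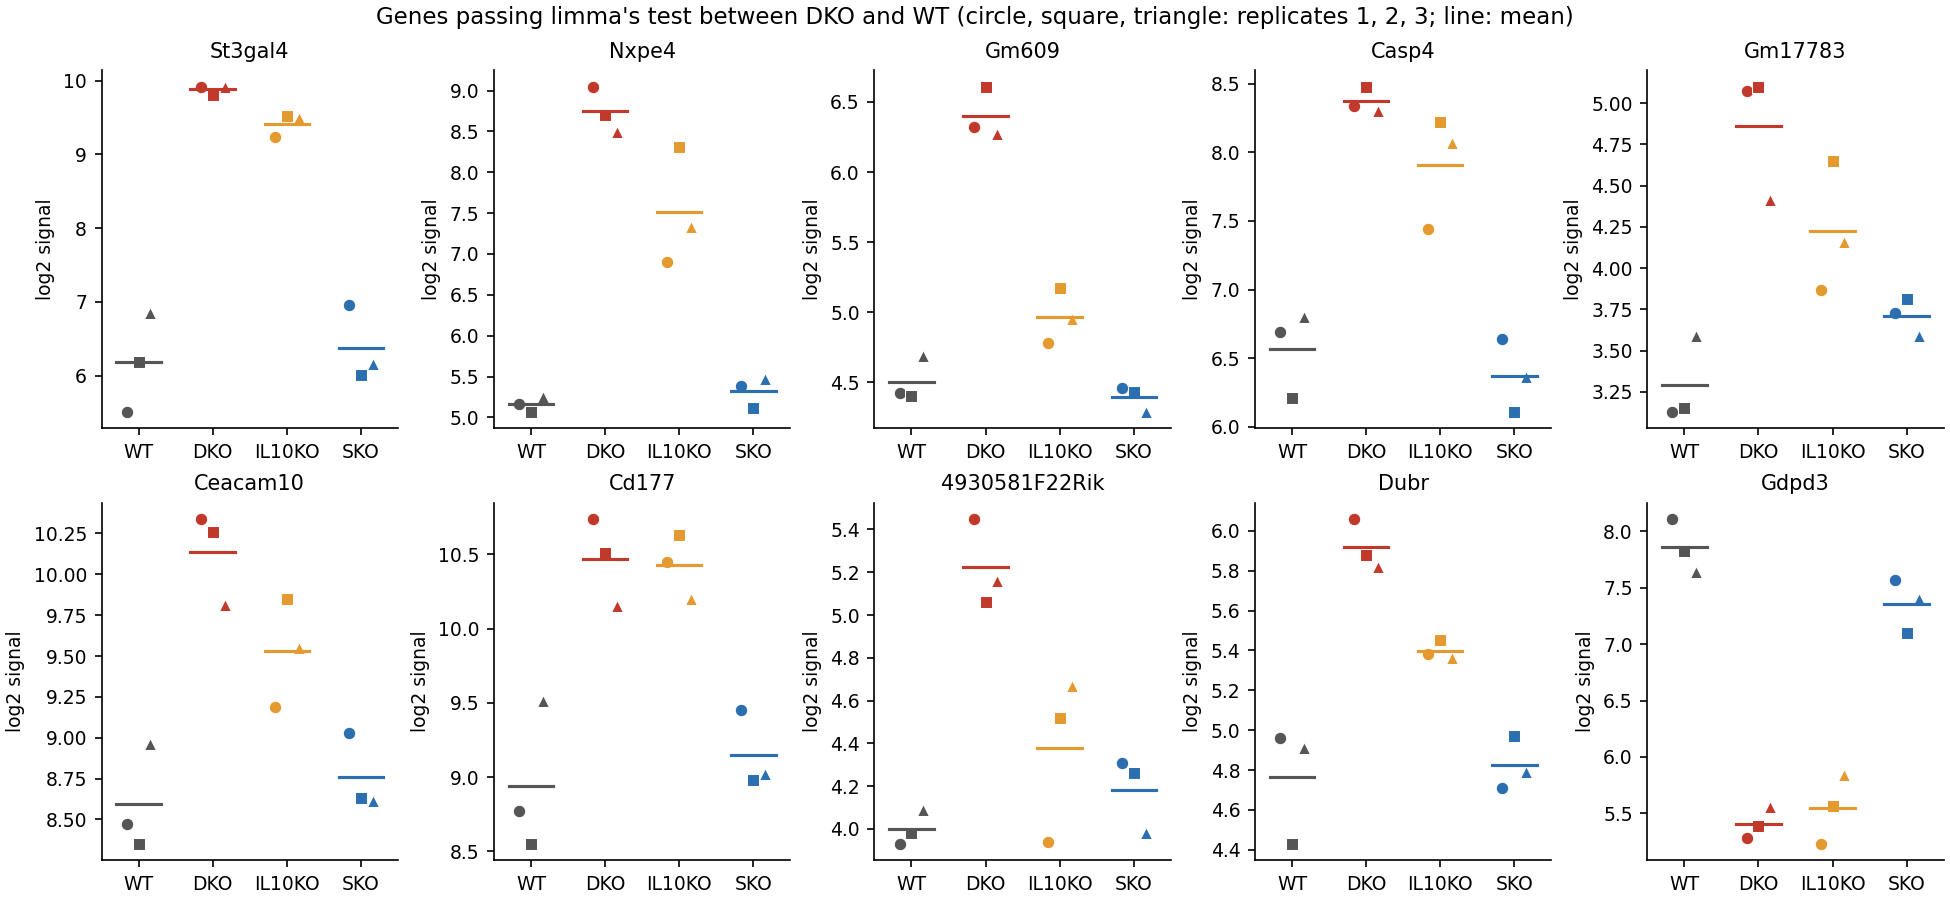
Log2 signal (y axis, a scale of its own in each panel that does not start at 0) of the 10 genes called between DKO and WT in each of the 12 arrays, by genotype, with a line at the group mean. In every panel the 3 DKO arrays lie beyond the 3 WT arrays; St3gal4 and Gdpd3 in IL10KO lie near DKO, whereas Gm609 in IL10KO (4.97 ± 0.20) lies near WT.

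The 10 called genes lay on 3 chromosomes, 4 on chromosome 9 (which carries 5.7% of the 21994 tested genes with a position), 3 on chromosome 7 (8.86%) and 3 on chromosome 16 (3.2%). The pairs named above account for 6 of them. Within the 5 tested genes on either side of each called gene, no gene other than its called partner passed the test. Nxpe2, next to Nxpe4 and of the same family, was higher by 0.99 without passing (adjusted p = 0.582). Around the targeted loci, none of the 100 tested genes nearest Il10 on chromosome 1 was called (0.0451% of all genes were), with differences from -0.93 (Ctse) to 0.97 (Pm20d1) and a median of -0.01. Without WT replicate 3, 1 of these 100 was called (0.311% of all genes were), and it was Pm20d1, at 1.46 ± 0.21 (adjusted p = 0.00591). The SKO mean of Pm20d1 lay near the DKO mean, and its IL10KO mean lay nearer the mean of WT replicates 1 and 2. None of the 100 nearest Sting1 on chromosome 18 was called with or without that library, from -0.25 (Nme5) to 0.88 (Cd14), with a median of 0.01. Those named extremes were chosen by their values.

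Leaving out the library labelled WT replicate 3 raised the count of calls from 10 to 69 (0.311%), 35 higher (0.158%) and 34 lower (0.153%), with 686 genes (3.09%) at an unadjusted p under 0.05. All 10 genes above were among the 69. The other 59 were 26 higher and 33 lower, and 14 of the 59 were on the pancreatic acinar list, all lower. That count covers list members only. Outside the list, 2210010C04Rik and Gm5409 differed by -7.38 and -5.75, about as far as many acinar genes. To place the library left out, each gene was put on a scale where 0 is the mean of WT replicates 1 and 2 and 1 is the DKO mean. The omitted library lay nearer DKO for 56 of the 59 genes (median place 0.98), which their failing the test with that library in part fixes. The exceptions were Clps, Exd1 and Zc3h12a. The SKO mean lay nearer DKO for 53 of the 59 (median 0.96). For the 10 genes called with all arrays, the SKO mean lay nearer DKO for 0 (median 0.15). The IL10KO mean was nearer DKO for 45 of the 59 (median 0.92) and for 8 of the 10 (median 0.66). These places are a description. Since the 59 and the 10 are told apart by WT replicate 3, which correlated best with an SKO array, the place of SKO in part follows from how the genes were chosen. Genes called against WT replicates 1 and 2 alone are also those in which these arrays lie far out, which brings other groups nearer to DKO.

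**Figure D3:**
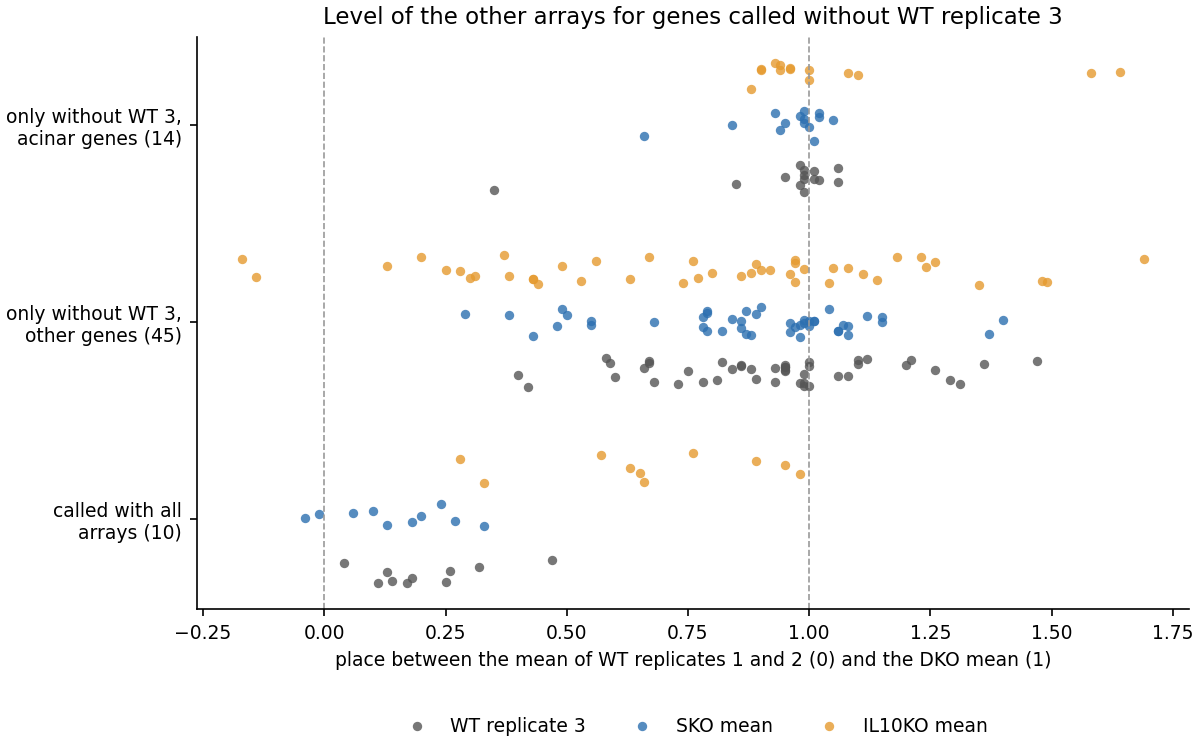
Position of WT replicate 3, the SKO mean and the IL10KO mean (points, 1 per gene) between the mean of WT replicates 1 and 2 (0 on the x axis) and the DKO mean (1), for genes called without WT replicate 3; the height of a point within a row is spread only for legibility. In the 2 upper rows most points of WT replicate 3 and of SKO sit around 1, and for the 10 genes called with all arrays they sit below 0.5.

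The largest rises called only without that library, by the naming rule, were Hsd3b3, Aadac, Tc2n, Mtmr7, Bst2 and Plet1. Hsd3b3, a hydroxysteroid dehydrogenase, read 8.12, 8.22 and 8.13 in DKO, 4.64 and 5.31 in WT replicates 1 and 2, and 7.99 in replicate 3. The difference was 3.18 ± 0.29 without replicate 3 (adjusted p = 0.000107) and 2.18 ± 0.60 with it (adjusted p = 0.71). SKO read 7.57 ± 0.54 (SD, n = 3) and IL10KO 5.96 ± 0.36. Aadac, a microsomal deacetylase that hydrolyses lipids and drugs, read 7.08, 6.90 and 6.78 in DKO against 3.93, 3.94 and 6.45 in WT. It was higher by 2.99 ± 0.29 without replicate 3 (adjusted p = 0.000188) and by 2.15 ± 0.52 with it (adjusted p = 0.507). Bst2 (tetherin, an interferon-induced protein that holds enveloped viruses at the cell surface) read 8.17, 8.41 and 8.42 in DKO against 6.65, 5.78 and 8.34 in WT. It was higher by 2.12 ± 0.35 without replicate 3 (adjusted p = 0.02) and by 1.41 ± 0.49 with it (adjusted p = 1). Mtmr7, a myotubularin-related lipid phosphatase, showed the same order of arrays (2.20 ± 0.22, adjusted p = 0.000204; with replicate 3, adjusted p = 0.737). Tc2n read 9.52, 9.31 and 8.66 in DKO and 7.03, 6.81 and 8.23 in WT, so that all DKO arrays lay above all WT arrays. The difference was 2.24 ± 0.26 without replicate 3 (adjusted p = 0.00093) and 1.81 ± 0.32 with it (adjusted p = 0.134). Plet1, an epithelial surface protein, was higher by 2.08 ± 0.30 (adjusted p = 0.00591; with replicate 3, 1.60 ± 0.36 and adjusted p = 0.432), and at 11.25 ± 0.19 (SD, n = 3) in IL10KO it stood above DKO (9.82 ± 0.16).

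The largest falls called only without that library were digestive genes of the pancreas: Cpb1, Reg1, Cpa1, Cel, Ctrb1 and Rnase1. Cpb1, a carboxypeptidase, read 9.73 and 11.99 in WT replicates 1 and 2, 3.60 in replicate 3 and 3.57, 3.17 and 3.62 in DKO. The 6 fell by 6.44 (Rnase1) to 7.41 (Cpb1) on the log2 scale without replicate 3, with adjusted p from 1.02e-06 (Ctrb1) to 0.00181 (Reg1), and none passed with it. In SKO, Cpb1 read 3.32 ± 0.08 (SD, n = 3) and in IL10KO 3.43 ± 0.13, the level of DKO. Of the 22 acinar genes measured, 14 were called lower without replicate 3 and 0 with it, with a list median of -4.54 and -3.18 against -0.02 over all genes. In each of the 14 apart from Clps, WT replicate 3 lay near DKO and far from WT replicates 1 and 2, at a place of 0.85 (Pnliprp1) or more on the scale above. Clps is a cofactor of pancreatic lipase, and read 9.70, 11.94 and 9.77 in WT and 7.72, 7.68 and 8.12 in DKO, below every WT array (-2.63 ± 0.47, adjusted p = 0.136; -2.99 ± 0.50 and adjusted p = 0.0219 without replicate 3). The part of the acinar signal in other differences from WT replicates 1 and 2 was not tested.

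Cell types and pathways of the colon were read through 38 gene lists, with 703 of 762 entries measured, which were chosen with earlier results of these data known and are described by counts and medians. In DKO against WT, 37 of the 38 lists had no called member, and the exception was the inflammasome list through Casp4. With 0.0451% of all genes called, lists of this size would mostly hold no call, so the count is no result about the lists. Without WT replicate 3, where 0.311% of all genes were called, 8 lists had a called member. Medians lay within 0.3 of 0 for 36 lists, the others being the acinar genes and the mast cell and eosinophil markers (-0.38). In IL10KO against WT, which shares the WT arrays, 32 lists had a called member, where 3.12% of all genes were called higher and 5.01% lower, and 32 also had one without WT replicate 3.

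**Figure D4:**
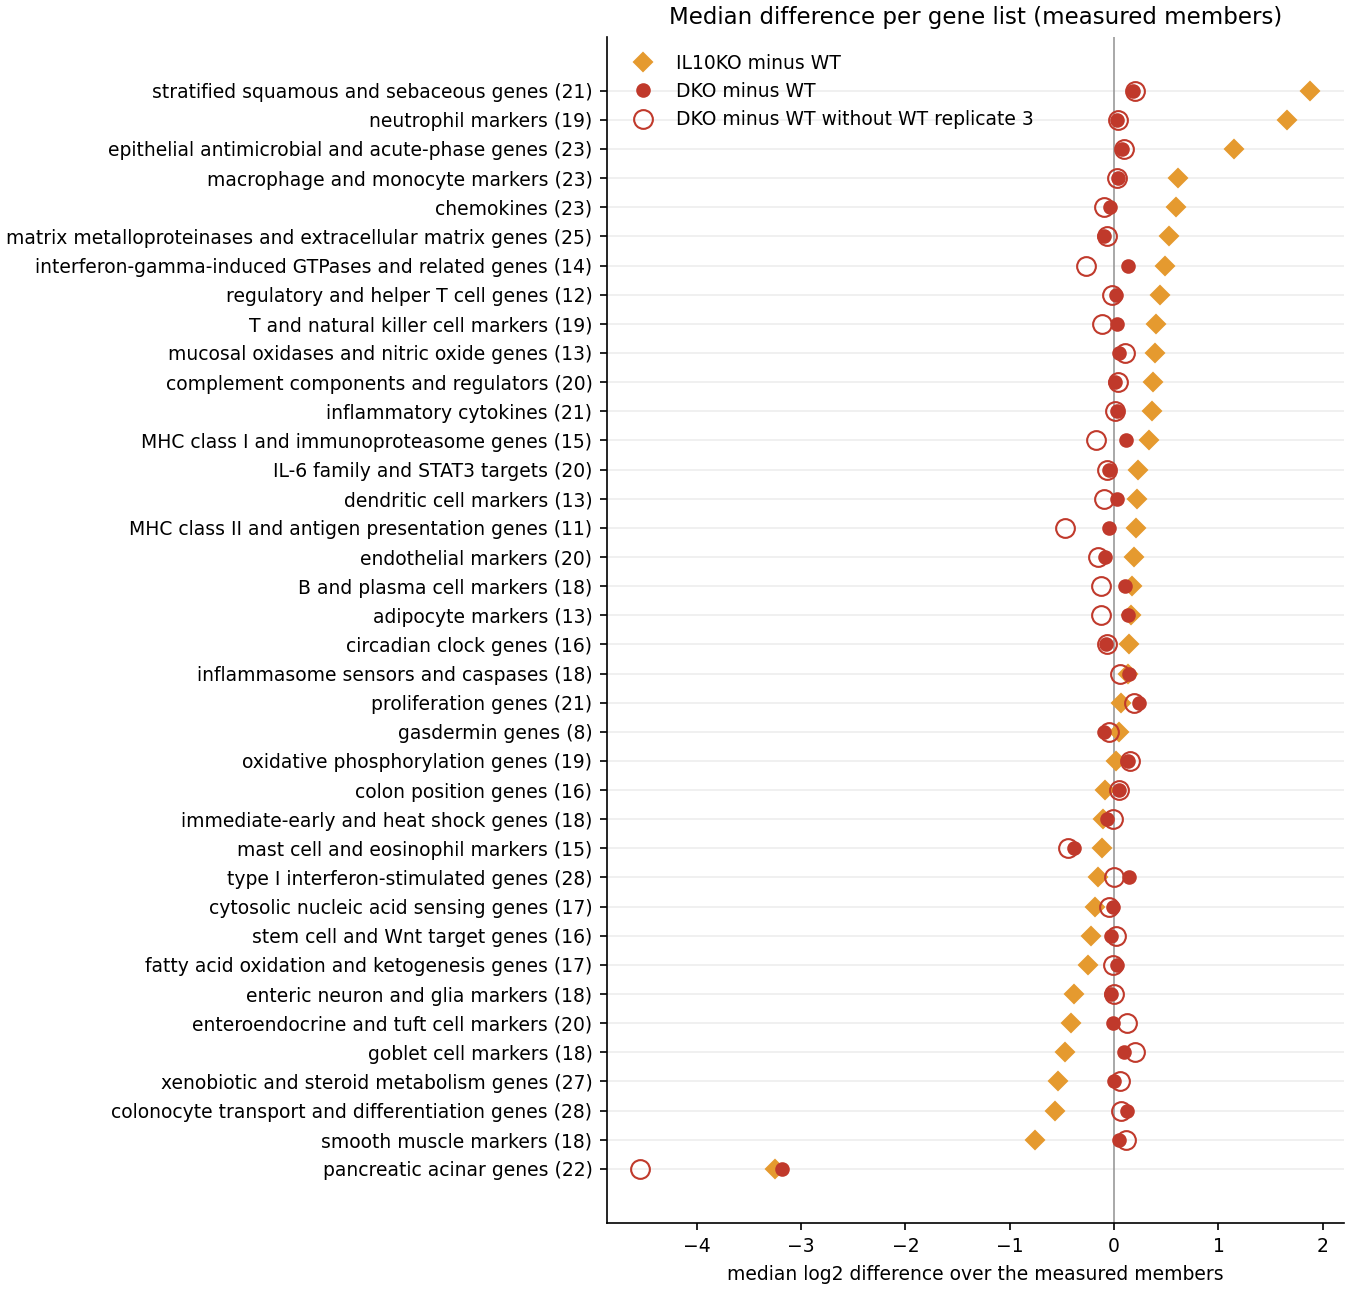
Median log2 difference (x axis) over the measured members of each gene list (y axis, number measured in brackets) for IL10KO minus WT, DKO minus WT and DKO minus WT without WT replicate 3. Apart from the acinar genes (-3.18) and the mast cell and eosinophil markers (-0.38), the filled DKO circles lie within 0.3 of 0, while the IL10KO diamonds reach 1.88 for squamous genes and -0.76 for smooth muscle.

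Among immune lists, none of the 19 neutrophil markers was called in DKO against WT, with a median of 0.03 and differences from -0.35 to 0.40. In IL10KO 13 of them were called higher (median 1.66), and in DKO against IL10KO 13 were called lower (2.45% of all genes were called lower and 3.34% higher in that comparison). In bulk tissue, fewer cells of a type and less RNA per cell cannot be told apart. Macrophage and monocyte markers (23 measured) had a median of 0.04 and inflammatory cytokines (21) of 0.03. Chemokines (23) had a median of -0.04, and 0 were called in any of these lists. Of their members 9, 8 and 9 were called higher in IL10KO against WT, where 3.12% of all genes were. Without WT replicate 3 these counts were 6, 7 and 7, against 1.61% of all genes. T and natural killer cell markers (19) had a median of 0.03 and B and plasma cell markers (18) 0.10, with 0 called in either. Mast cell and eosinophil markers (15) were the exception in level, since 0 of 15 had a DKO mean above the WT mean. Their mean signal was 3.88, 3.75 and 4.02 in DKO and 4.33 and 4.04 in WT replicates 2 and 3. WT replicate 1 was the highest of all arrays. SKO stood at 4.01 to 4.07 and IL10KO at 4.18 to 4.28. The arrays' lower quartiles over all genes ran from 3.90 to 4.26, so most of these means were low. The list's median difference ranged from -0.44 to -0.23 over single omissions, against -0.02 over all genes with all arrays. Cma1, a mast cell chymase, read 4.23, 4.01 and 4.32 in DKO and 5.39, 4.84 and 5.16 in WT. All DKO arrays lay below all WT arrays, but the difference of -0.94 ± 0.21 did not pass (adjusted p = 0.432). Mcpt1, a protease of mucosal mast cells, read 8.27, 5.61 and 4.06 in WT and 3.83, 3.60 and 4.64 in DKO. WT replicates 1 and 2 stood above all DKO arrays, replicate 1 by more. Both also had high acinar signals, but in the other order, with means of 7.80 in replicate 1 and 10.51 in replicate 2. The Mcpt1 difference of -1.95 ± 0.71 did not pass (adjusted p = 1). Without WT replicate 3 Mcpt1 was called lower, at -2.91 ± 0.55 with an adjusted p that rounds to 0.05. The part of WT replicates 1 and 2 in the difference was not tested.

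Interferon and antigen presentation lists moved with single WT arrays. The 14 interferon-gamma-induced genes had a median signal between 5.63 (replicate 3) and 7.75 (replicate 1) in WT and of 6.33, 6.82 and 6.58 in DKO, so the WT arrays lay on both sides of DKO. The median difference was 0.13 with all arrays and -0.27 without WT replicate 3, and over all single omissions it ranged from -0.27 to 0.47. MHC class II genes (11 measured) had a median of -0.05, and from -0.47 to 0.43 over single omissions, and MHC class I genes (15) 0.11, and from -0.17 to 0.43. The type I interferon-stimulated genes (28), a known output of STING, had a median of 0.14 with 0 called and with DKO all above WT for 0 and all below for 1, against 4.34% and 5.06% of all genes. Their median signals were 7.08, 7.44 and 6.96 in DKO and 7.52, 6.69 and 6.67 in WT. No direction can be given for these lists.

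Epithelial, stromal and metabolic lists likewise had no called member with all arrays. Goblet cell markers (18) had a median of 0.09, colonocyte transport and differentiation genes (28) 0.12, xenobiotic and steroid metabolism genes (27) 0.00, smooth muscle markers (18) 0.05 and enteric neuron and glia markers (18) -0.03. In IL10KO against WT, 6 of the goblet markers, 12 of the colonocyte genes and 12 of the xenobiotic genes were called lower. So were 13 of the smooth muscle markers and 6 of the neuron and glia markers, against 5.01% of all genes. Without WT replicate 3 these counts were 2, 13, 11, 10 and 5, against 2.39% of all genes. In DKO against IL10KO, 13 of the smooth muscle markers (median 0.80) and 14 of the colonocyte genes (median 0.68) were called higher, against 3.34% of all genes.

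Of the 28 colonocyte genes, 4 lay above WT in every DKO array and 2 below, and of the 27 xenobiotic genes 5 lay above and 2 below, against 4.34% and 5.06% of all genes. Differences ran from -0.99 (Slc37a2) to 1.13 (Slc9a3) in the colonocyte list and from -0.42 (Cyp2b10) to 1.55 (Ces1f) in the xenobiotic list, and 3 of those above are given here. Ces1f, a carboxylesterase, read 8.07, 7.73 and 6.78 in DKO and 5.42, 5.91 and 6.59 in WT (1.55 ± 0.36, adjusted p = 0.433). Cyp2c65, a cytochrome P450, read 6.80, 6.74 and 5.77 in DKO and 4.66, 4.90 and 5.73 in WT (1.34 ± 0.35, adjusted p = 0.612), and exceeded IL10KO by 1.85 (adjusted p = 0.00884). Slc9a3, the apical sodium-proton exchanger, read 9.68, 9.77 and 9.23 in DKO and 8.09, 8.27 and 8.95 in WT (1.13 ± 0.32, adjusted p = 0.757). In each of the 3 genes the library labelled WT replicate 3 was the WT array nearest to DKO, and none passed without it, at adjusted p = 0.0616, 0.101 and 0.239. Hsd3b2 was the 1 member of the xenobiotic list called without that library (0.311% of all genes were), higher by 1.46. Its signal in WT replicate 3 lay above the DKO mean.

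Genes that stood far from WT in IL10KO were next read in DKO. By a rule added after the values were seen, these were the 12 largest rises and 12 largest falls of IL10KO against WT, and DKO and IL10KO are compared here with the same WT arrays. None of the 24 was called in DKO against WT (0.0451% of all genes were), and 17 differed from WT by less than 1. In 5 of the 24 the DKO arrays lay all above or all below the WT arrays, against 9.4% of all genes. They were Clca4b and Krt4, above, and Clps, Pnliprp1 and Pnliprp2 of the pancreas, below. Among the 12 rises, which ran from 3.70 to 6.56 in IL10KO, DKO lay between -0.36 and 3.40 from WT, and for 10 of the 12 within 1. The 12 falls included pancreatic genes, and among the 8 outside the acinar list, at -4.82 to -2.48 in IL10KO, DKO lay between -1.40 and 0.61 from WT.

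The epithelial antimicrobial and acute-phase genes (23 measured) had 0 called members in DKO against WT and a median of 0.08. In IL10KO against WT, 13 were called higher and 3 lower, against 3.12% and 5.01% of all genes. Without WT replicate 3 these counts were 12 and 2, against 1.61% and 2.39% of all genes. In DKO against WT without that library, 1 was called lower, Reg1, which is also on the acinar list. Reg3g, a lectin that kills Gram-positive bacteria, read 2.81, 3.12 and 3.14 in DKO and 3.09, 2.71 and 2.65 in WT, and the groups overlapped. The difference was 0.21 with a 95% interval from -0.39 to 0.80 (adjusted p = 1), while IL10KO stood at 9.37 ± 0.74 (SD, n = 3). Reg3b, a related lectin, read 4.85, 4.22 and 4.89 in DKO and 4.03, 6.67 and 4.33 in WT, against 12.63, 10.12 and 11.11 in IL10KO. Its difference of -0.36 ± 0.63 included WT replicate 2, the highest WT array and the one with the highest acinar signal, and was 0.47 without it. Saa3, an acute-phase apolipoprotein, was at 4.28 ± 0.36 (SD, n = 3) in DKO, 4.20 ± 0.08 in WT and 10.59 ± 0.10 in IL10KO, and the interval of the difference from WT ran from -0.32 to 0.48. Hp, which binds free haemoglobin, was at 5.50 ± 0.74 in DKO, 5.49 ± 0.71 in WT and 9.87 ± 0.20 in IL10KO. The window before the start of Reg3b, at chr6:78370635-78370884 (+ strand), is shown beside those of the called genes because Reg3b was near WT in DKO, and it held TTCNNNGAA at -129 and TATAAA at -29.
Reg3b: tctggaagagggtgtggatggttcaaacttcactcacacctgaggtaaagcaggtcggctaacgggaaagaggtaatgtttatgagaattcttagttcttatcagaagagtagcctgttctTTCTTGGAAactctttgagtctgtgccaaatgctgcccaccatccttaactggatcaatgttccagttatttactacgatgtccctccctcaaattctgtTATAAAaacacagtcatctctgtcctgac
Reg3g held an NF-kappaB match at -123 and Saa3 held the GAAA repeat at -125.

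Genes of infiltrating cells and tissue breakdown also read close to WT. S100a8, a calcium-binding protein of neutrophils, was at 2.88 ± 0.31 (SD, n = 3) in DKO, 2.55 ± 0.17 in WT and at 5.60, 7.08 and 8.19 in the IL10KO arrays, with an interval from -0.60 to 1.27 for DKO minus WT. Mmp13, a collagenase, was at 5.32 ± 0.15, 5.48 ± 0.25 and 9.36 ± 0.98 in the same order, with an interval from -0.92 to 0.60. Retnlg, a resistin-like protein of neutrophils, was at 3.11 ± 0.45, 3.46 ± 0.49 and 7.29 ± 1.26. Il1b, an inflammasome-processed cytokine named here after its values were seen, read 4.96, 5.33 and 5.56 in DKO and 6.33, 4.97 and 4.64 in WT, with an interval from -0.98 to 0.91. Of the genes that fell in IL10KO, Ang4, an antimicrobial ribonuclease, was at 11.39 ± 0.56 in DKO, 10.78 ± 0.41 in WT and 5.96 ± 1.60 in IL10KO, with an interval from -0.61 to 1.84. Cyp2c55 was at 10.89 ± 0.04, 10.95 ± 0.66 and 8.12 ± 1.10, Gsdmc2, a gasdermin of colonocytes, at 10.24 ± 0.33, 10.49 ± 0.36 and 7.90 ± 0.34, and Mptx1, a mucosal pentraxin, at 11.21 ± 0.49, 11.02 ± 0.35 and 8.15 ± 1.21. All of these had adjusted p = 1 in DKO against WT, with and without WT replicate 3, and without it the differences were 0.12 for Reg3g, -0.70 for Reg3b, 0.09 for Saa3, -0.29 for Hp, 0.36 for S100a8, -0.26 for Mmp13, 0.83 for Ang4 and 0.26 for Cyp2c55. The intervals leave room for differences of about the size of their bounds, and a missed threshold does not show equal levels.

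**Figure D5:**
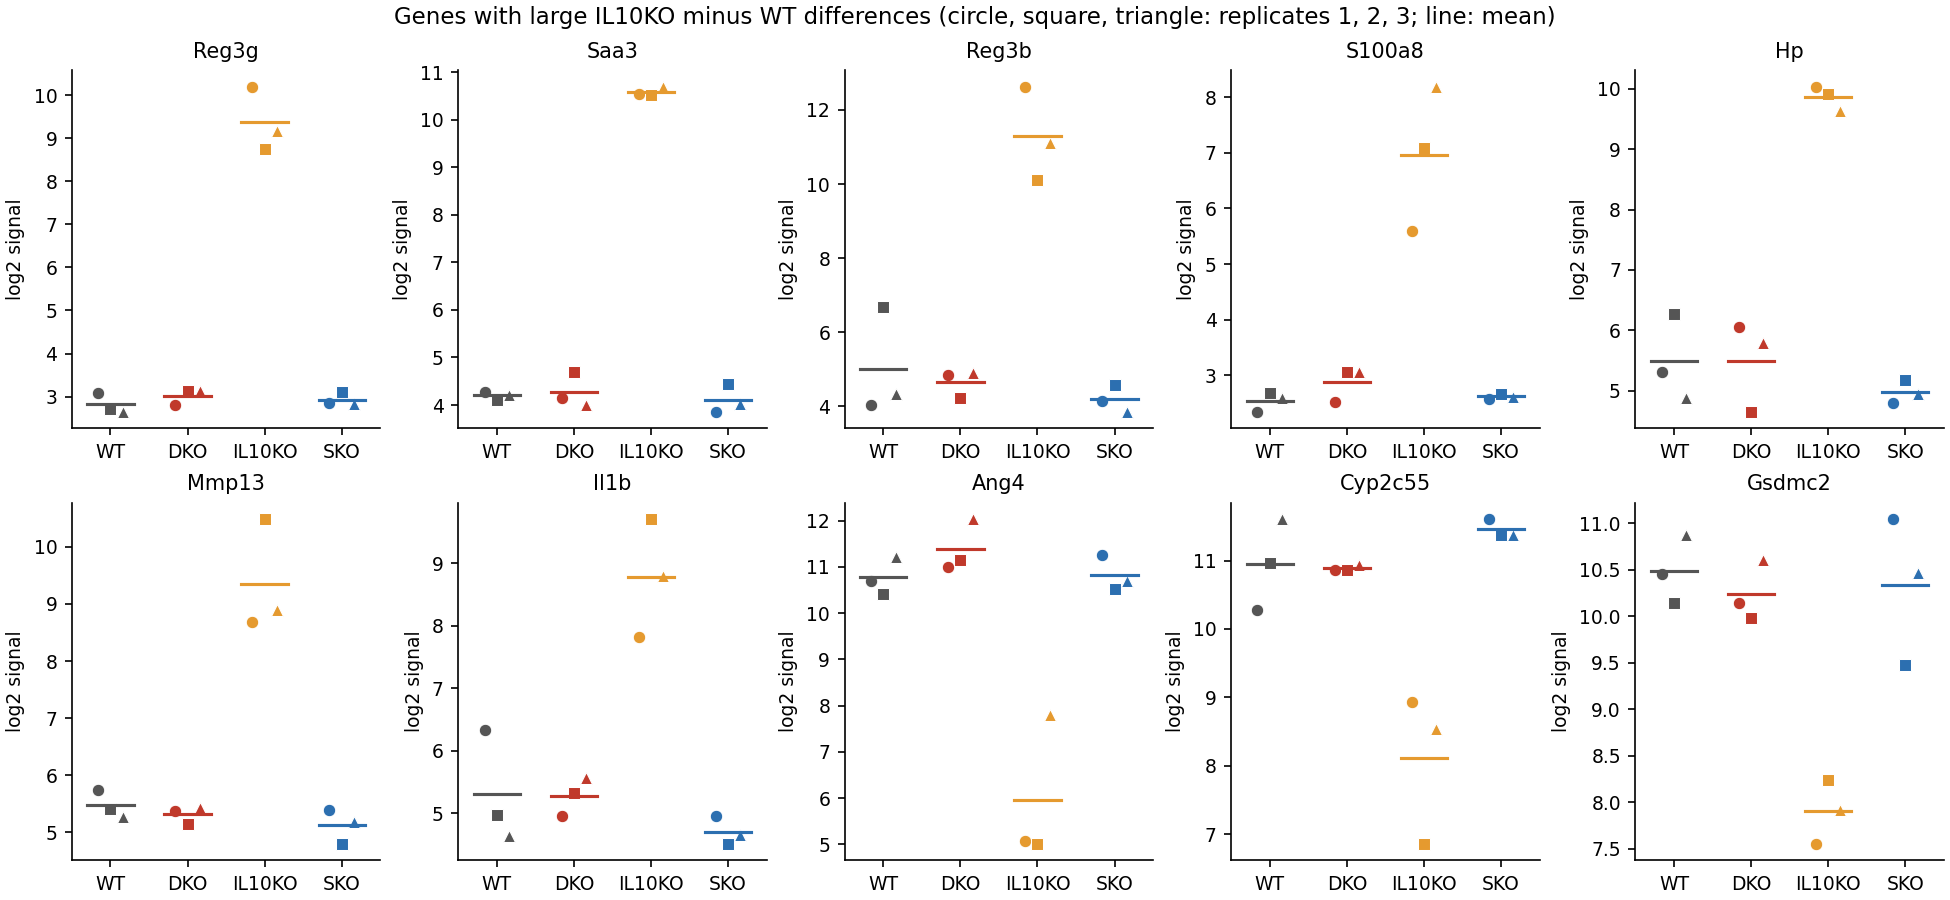
Log2 signal (y axis, its own scale per panel, not from 0) of 10 genes with large IL10KO minus WT differences in each array, by genotype, with a line at the group mean. DKO and WT points overlap or lie close in every panel, as for Reg3g (3.02 ± 0.19 and 2.81 ± 0.24, SD, n = 3), while IL10KO stands apart.

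Clca4b, a calcium-activated chloride channel regulator of epithelium, was the gene among the 12 rises that stayed farthest from WT. It read 10.78, 11.31 and 9.52 in DKO, 8.94, 5.57 and 6.88 in WT, 12.19, 11.88 and 11.86 in IL10KO and 6.58, 5.52 and 8.64 in SKO. All DKO arrays lay above all WT arrays, but the WT arrays spread widely. The difference was 3.40 ± 0.79 with an interval from 1.70 to 5.11 (adjusted p = 0.452), and 3.28 ± 0.91 without WT replicate 3 (adjusted p = 0.423). Krt4, a squamous keratin, read 4.46, 4.37 and 6.94 in DKO and 4.16 to 4.26 in WT, so that its difference of 1.05 (adjusted p = 1) rested mostly on DKO replicate 3, the DKO array with the highest squamous mean.

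Slpi, Duox2, Nlrc4 and Pycard lay above all WT arrays in every DKO array without passing with all arrays. In the antimicrobial list 1 of 23 measured genes lay so, and in the oxidase list 2 of 13, against 4.34% of all genes. The neutrophil, macrophage, cytokine and chemokine lists held 1 each. The genes below are therefore given singly. Slpi, a secreted antiprotease, read 7.43, 7.30 and 6.93 in DKO, 6.42, 6.08 and 6.53 in WT and 9.57, 9.73 and 9.57 in IL10KO. Its difference of 0.88 ± 0.17 did not pass (adjusted p = 0.223; 0.97 ± 0.19 and adjusted p = 0.0676 without WT replicate 3), and DKO lay below IL10KO by -2.40 (adjusted p = 6.42e-06). Duox2, the epithelial oxidase that makes hydrogen peroxide at the mucosal surface, read 9.34, 9.60 and 9.14 in DKO and 8.15, 7.74 and 8.77 in WT. It was higher by 1.14 ± 0.25 (adjusted p = 0.413), and passed without WT replicate 3 at 1.41 ± 0.23 (adjusted p = 0.0188). IL10KO read 8.98, 9.08 and 8.94. Nlrc4, a component of an inflammasome that responds to bacterial flagellin, and Pycard, the adaptor that links sensors to caspases, were chosen after their values were seen. Nlrc4 read 7.69, 7.57 and 7.39 in DKO and 6.40, 6.46 and 7.27 in WT, higher by 0.84 ± 0.23 (adjusted p = 0.72; 1.12 ± 0.21 and adjusted p = 0.0429 without WT replicate 3). Pycard read 8.51, 8.35 and 8.49 in DKO and 7.68, 7.66 and 7.67 in WT, higher by 0.79 ± 0.17 (adjusted p = 0.426; 0.79 ± 0.20 and adjusted p = 0.323 without it). Over the inflammasome list, 5 of 18 measured genes had all DKO arrays above all WT arrays (4.34% of all genes did). A higher DKO mean was seen in 15 of 18, the median was 0.14 against -0.02 over all genes, and 1, Casp4, was called.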

How the data were processed

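Colon total RNA (300 ng an array) was labelled and hybridised to Affymetrix whole-transcript arrays, per the labels' protocols. The authors deposited log2 signals per probe set. The submitters' processing notes name Affymetrix Expression Console 1.3.1.187. That the scale is log2 was read from the range of the values; how background and arrays were normalized, and the array's build, were not given. The platform annotation gave 1 symbol for 23521 of 41345 probe sets and several for 1814, and left 16010 unnamed. Entrez identifiers of 23328 were found in RefSeq's mouse gene table (GRCm38.p6), where 0 symbols differed. The brightest probe set stood for each of 22180 genes, of which 1082 had more than 1. Values were neither filtered nor normalized again. Precision is limited by the number of arrays.

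One limma fit (limma 3.58.1, R 4.3.3) held all 12 arrays and 1 mean for each genotype, with 8 residual and 5.56 prior degrees of freedom. Tests were 2-sided. In a simulation of DKO against WT over 22180 genes, 200 were changed. The fit found 70% of the 100 genes shifted by log2 1 and 97% of the 100 shifted by log2 2, and called 3 genes wrongly. The simulation drew independent normal noise with 1 spread per gene and set no WT array apart from the others. The real WT arrays differed in Sting1 and acinar genes, so these shares do not give the sensitivity of the real comparison. Replicate numbers follow sample order and pair nothing. The naming rule took the 12 largest rises and falls among called genes whose DKO arrays lay beyond WT, up to 5 called members of a list (or the 2 with the smallest p), and 6 rises and 6 falls called only without WT replicate 3; predicted, clone and small RNA symbols were left out. Members and lists were chosen with earlier results of these data known. Alternatives tried were quantile normalization, centring on array medians, omission of the dimmest 33.3% of genes, averaging of probe sets, a fit of the DKO and WT arrays alone, a trended and robust prior, array weights, a 2-fold threshold and omission of each array in turn. A fit of the DKO arrays with WT replicates 1 and 2 alone was chosen after seeing the data.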

Additional observations from a re-analysis of the deposited data

How the results depend on the processing

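St3gal4, Nxpe4, Gm609, Casp4 and Gdpd3 were called in all 20 alternatives in which they were tested. Cd177 was called in 7 of 20, Ceacam10 in 15 of 20, Dubr in 16 of 20, Gm17783 in 13 of 19 and 4930581F22Rik in 11 of 19. Averaging probe sets left the values of all these genes unchanged, since each had 1 probe set. The 2-fold threshold could drop none of them, as each already differed by at least 2-fold. The count of 10 calls, 9 higher and 1 lower, became 33 (20 higher, 13 lower) with array weights, whose estimate did not converge and gave SKO replicate 1 a weight of 13.6. It became 7 (5 higher, 2 lower) with only the DKO and WT arrays, and 64 (38 higher, 26 lower) with only the DKO arrays and WT replicates 1 and 2, which was chosen after seeing the data. Over single omissions it ranged from 5 (without DKO replicate 1 or WT replicate 2) to 69 (without WT replicate 3), the rises from 4 to 35 and the falls from 1 to 34. Quantile normalization gave 7, leaving out the dimmest genes 8, and median centring, the mean of probe sets, the trended and robust prior and the 2-fold threshold 10 each. A separate test over all 41345 probe sets, not counted among these alternatives, called 10 probe sets, 7 with a single symbol and 3 without. At most 7 of the 10 genes above therefore passed in it. Signs turned only in genes that did not pass. Hp was -0.26 with array weights, -0.29 with only the DKO arrays and WT replicates 1 and 2, and between -0.29 and 0.43 over single omissions. Il1b was 0.04 with array weights, 0.02 after quantile normalization and between -0.37 and 0.48 over single omissions. Cyp2c55 was 0.26 without WT replicate 3, in that fit and in the added one, and as low as -0.40. Over single omissions Mptx1 ranged from -0.03 (without DKO replicate 3) to 0.45, Reg3b from -0.85 to 0.47 (without WT replicate 2) and Saa3 from -0.13 (without DKO replicate 2) to 0.22. The cause of these changes was not tested. No paired analysis was possible because the labels give no replicate numbers that the groups share. Dim signals have no detection call, so none can be called absent.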

Other observations

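Circadian clock genes included some that lay below WT in every DKO array. Of 16 measured, 4 had all DKO arrays below all WT arrays and 1 had them above, against 5.06% and 4.34% of all genes, and 0 were called. Nr1d1, a nuclear receptor that represses clock genes, read 7.74, 7.10 and 6.57 in DKO and 8.58, 7.91 and 8.81 in WT, 2.46-fold lower (limma adjusted p = 0.612). Dbp, a clock-controlled transcription factor, read 6.46, 6.36 and 6.39 in DKO and 7.18, 6.97 and 7.14 in WT, a difference of -0.69 ± 0.18 (limma adjusted p = 0.612), and was at 7.79 ± 0.44 (SD, n = 3) in IL10KO and 7.25 ± 0.12 in SKO. DKO lay below IL10KO by -1.39 for Dbp (limma adjusted p = 0.000899). Nr1d2 was lower than WT by -0.66 and Per1 by -0.51, and Cry1, a repressor of the clock, was higher by 0.41 (limma adjusted p = 1 for each). The labels give no hour of collection.

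Of 21 proliferation genes measured, 19 had a higher mean in DKO than in WT, 5 had all DKO arrays above all WT arrays (4.34% of all genes did), and 0 were called (0.0451% of all genes); the median was 0.24 against -0.02 over all genes, and over single omissions it ranged from 0.19 to 0.28. The list's mean signal was 7.70, 7.69 and 7.67 in DKO and 7.67, 7.39 and 7.37 in WT, so WT replicate 1 read at the DKO level. The IL10KO arrays were at 7.44, 7.54 and 7.68, and the SKO arrays at 7.38, 7.07 and 7.34. Top2a, which untangles DNA for division, read 8.33, 8.57 and 8.47 in DKO and 8.20, 8.06 and 7.78 in WT. Gcg, the glucagon precursor of enteroendocrine cells, read 9.06, 9.10 and 8.81 in DKO and 8.43, 8.53 and 8.30 in WT, a difference of 0.57 ± 0.18 (limma adjusted p = 1).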
